A study of Mus musculus with 6 samples.

Results

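The genes described here code for voltage-gated ion channels, for potassium channels of every kind and for the subunits that assemble with them. They are the genes whose symbol in the platform annotation starts with Kcn, Cacn, Scn with 1 digit and then a or b, or Hcn with a digit, each read from the probe set with the highest mean of those assigned to that gene alone. The rule found 127 genes among the 22180 tested. The rule itself used no measured difference between the genotypes, but it was chosen with earlier results of these data known. By channel class they were 36 pore-forming and 13 auxiliary subunits of voltage-gated potassium channels, 12 subunits of potassium channels opened by calcium or sodium, 14 inward rectifiers and 13 potassium channels with 2 pore domains. There were also 6 pore-forming and 3 beta subunits of sodium channels, 10 pore-forming and 15 auxiliary subunits of calcium channels, 3 pacemaker (HCN) channels, and 2 non-coding RNAs that carry a channel gene's name.

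RNA came from the vomeronasal organ (VNO), the pheromone-sensing organ of the nasal septum, of mice at postnatal day 17. There were 3 wild-type and 3 AP-2e null samples, hybridised to 1 whole-transcript array each. AP-2e is the transcription factor encoded by Tfap2e. The labels call the samples biological replicates, while strain, sex, the design of the null allele and the number of animals per sample are absent from the labels. If a sample's RNA was not from separate animals, the p-values measure technical spread between arrays.

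Vomeronasal neurons turn a small receptor current into trains of spikes. Sodium channels carry the upstroke of each spike, potassium channels end it and set the resting potential, calcium channels couple spikes to transmitter release, and HCN channels carry an inward current at negative potentials that shapes excitability. In the VNO the ERG channel (Kcnh2) has been studied in basal neurons, which use V2R receptors, and the small-conductance channel SK3 (Kcnn3) and the G protein-gated inward rectifiers (Kcnj3, Kcnj6) have been studied in the primary response to pheromones.

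The arrays' medians over all probe sets lay between 4.997 and 5.079 on the log2 scale. Markers of mature vomeronasal neurons were present on every array, with Omp between 9.46 and 10.48 and Trpc2, the transduction channel, between 6.75 and 7.08. Tfap2e did not overlap between the genotypes and its mean was lower by 0.68 in AP-2e null VNOs, without passing over all genes (adjusted p = 0.431 in limma). Wild-type replicate 3 stood somewhat apart, with the lowest mean correlation with the other arrays (r = 0.973, across probe sets, which are not independent replicates). AP-2e null replicate 1 alone had a high signal of Xist, an RNA of the inactive X chromosome, at 10.64 against 3.55 to 3.58 on the other 5 arrays.

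No channel gene passed the threshold in AP-2e null VNOs. In limma, 0 of 127 were lower at an adjusted p under 0.05, against 0.216% of all genes, and 0 were higher, against 0.00902% of all genes. With a one-way test per gene that shares no spread across genes the count was 0 as well. At an unadjusted p under 0.05 in limma, 6 channel genes were lower, which is 4.72% of them against 2.49% of all genes, and 3 were higher, 2.36% against 1.9%. Together these 9 genes were 7.09% of the channel genes, where 4.4% of all genes reached that level in either direction. The one-way test gave 8, which is 6.3% of the channel genes against 2.86% of all genes. Without wild-type replicate 1 there were 11 lower and 1 higher channel genes at that level, together 9.45% of them against 4.36% of all genes. Without AP-2e null replicate 1 there were 8 lower and 0 higher, 6.3% against 4.37% of all genes. The smallest adjusted p of any channel gene was 0.756.

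The differences were small. The median absolute difference of the 127 genes was 0.12 on the log2 scale, which is 1.08-fold either way, against 0.09 for all genes. For 119 of them, 93.7%, the 95% interval of the difference lay within 2-fold either way, as it did for 94.6% of all genes, and for 92 of them, 72.4%, it lay within 1.5-fold, against 78.7% of all genes. The interval reached beyond 2-fold for the remaining 8 genes, which were Cacng5, Cacng2, Kcnq3, Kcnh7, Kcnj16, Kcnj5, Kcne3 and Kcnrg, named here after their values were seen. Of these 8, only Cacng5 had an interval that left out 0.

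Means were lower in AP-2e null VNOs for 78 channel genes and higher for 49, so that 61.4% were lower where 50.6% of all genes were. The median difference of the channel genes was -0.04, against -0.0005 for all genes. With each array's median subtracted, 88 were lower, where 62% of all genes then were. Without wild-type replicate 3, 72 of the 127 were lower, where 48.5% of all genes were. Genotypes did not overlap for 9 genes that were lower in AP-2e null VNOs, 7.09% against 3.64% of all genes, and for 5 that were higher, 3.94% against 3.42%. Only 3 channel genes (Scn1a, Kcnu1 and Kcnj6) had both genotype means under the arrays' lower quartile of 3.62. That is 2.36% of them, against 15.4% of all genes, so the channel genes were less often dim than the genes they are compared with. Since the organ was measured as a whole, fewer cells of a type and less RNA per cell cannot be told apart in any value given here.

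**Figure D1:**
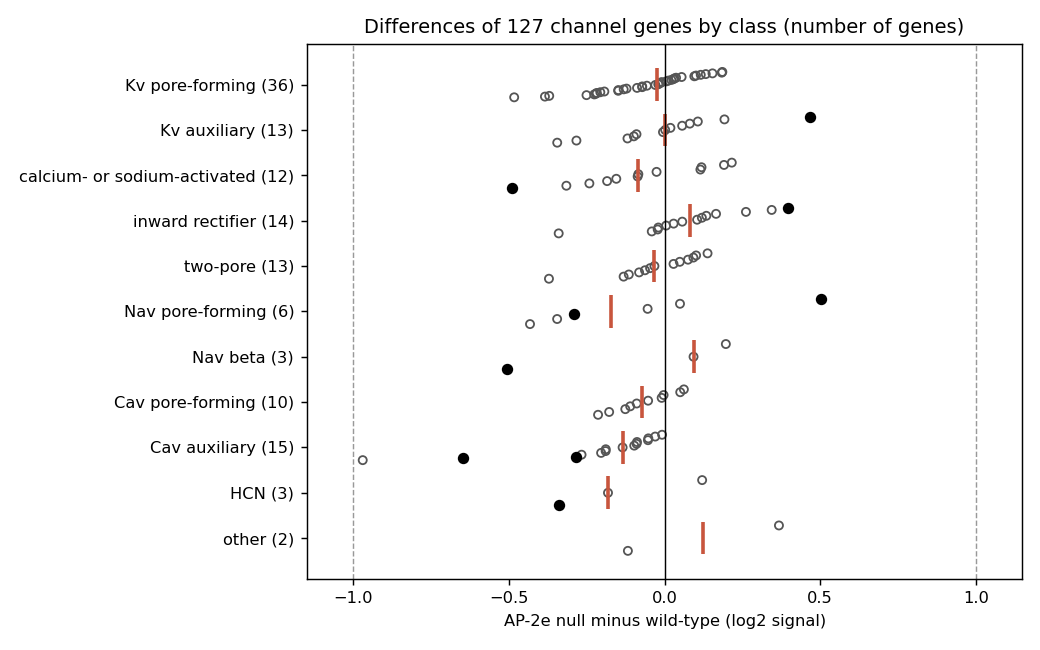
Difference between AP-2e null and wild-type means (x axis, log2 signal) for each of the 127 channel genes, in rows by class with the number of genes. Circles are genes, filled where the unadjusted p in limma was under 0.05, red bars are class medians and dashed lines mark 2-fold. All genes lie within 2-fold, and all 15 auxiliary subunits of calcium channels lie left of 0.

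Sodium channel genes lay on both sides of 0. Scn9a, the pore-forming subunit that olfactory and pain-sensing neurons use, had log2 signals of 7.92, 7.81 and 8.02 in wild-type replicates 1, 2 and 3 and of 7.64, 7.70 and 7.55 in AP-2e null replicates 1, 2 and 3. Every AP-2e null array was below every wild-type array. From 7.92 ± 0.11 the mean was lower at 7.63 ± 0.07 (SD, n = 3 each), by a difference of -0.29 with a 95% interval of -0.48 to -0.10, or 1.22-fold lower (unadjusted p = 0.0110, adjusted p = 0.873 in limma). The difference stayed between -0.35 and -0.24 in every alternative setting.

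Scn3b, a beta subunit that tunes sodium channel gating, had signals of 8.85, 8.83 and 9.40 in wild-type and of 8.39, 8.45 and 8.71 in AP-2e null VNOs. The groups did not overlap, and wild-type replicate 3 stood well above the other wild-type arrays. The difference of -0.51 (SE 0.18) was 1.42-fold (unadjusted p = 0.0355, adjusted p = 0.873 in limma) and -0.32 without that array. Scn3a, a sodium channel that is prominent in immature neurons, showed the same high array, with 7.99, 8.02 and 8.65 against 8.02, 7.84 and 7.75. Here the groups overlapped and the difference of -0.35 had an interval of -0.84 to 0.15, and it was -0.13 without that array. Scn8a, a main channel of the axon initial segment in many neurons, likewise reached 6.18 in wild-type replicate 3 while the remaining arrays gave 5.19 to 5.53.

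Of the 9 sodium channel genes, 4 had a mean above that of wild-type, namely Scn7a, Scn2b (by 0.20), Scn4b (by 0.09) and Scn1a (by 0.05), the last 2 of which changed sign when 1 array was left out. Scn7a had the widest of these differences. It codes for a relative of the spike-generating channels that responds to extracellular sodium and is made by glia. Its signals were 7.68, 8.10 and 7.64 in wild-type and 8.50, 8.22 and 8.20 in AP-2e null VNOs. All AP-2e null arrays were higher, with AP-2e null replicate 1 the highest, and the difference was 0.50 (SE 0.15), or 1.42-fold higher (unadjusted p = 0.0191, adjusted p = 0.873 in limma). Without AP-2e null replicate 1 it was 0.41. The means of 3 of 3 glial marker genes were higher too, with list means from 6.49 to 7.30 in wild-type and from 7.002 to 7.51 in AP-2e null VNOs, so that the groups overlapped. Sox10 was higher by 0.21, S100b by 0.47 and Fabp7 by 0.22. The S100b value rested on AP-2e null replicate 2, at 6.99 against 4.99 to 5.93 elsewhere, an array on which the mean of 6 cartilage genes was 8.04 against 5.55 to 5.91 elsewhere. The Fabp7 value rested on wild-type replicate 1, at 7.23 against 8.32 to 8.79 elsewhere. The part of glial RNA in the Scn7a value was not tested.

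All 15 auxiliary subunits of calcium channels had lower means in AP-2e null VNOs, where 50.6% of all genes did. None passed in limma, 2 (13.3%, against 4.4% of all genes) had an unadjusted p under 0.05, and the median difference was -0.13. The class holds alpha-2-delta and beta subunits, which bring calcium channels to the membrane, and gamma subunits, several of which are better known as partners of AMPA-type glutamate receptors. The direction leaned on wild-type replicate 3, which was the highest of the 6 arrays for 9 of the 15 genes, against 23% of all genes. Without it 10 were lower and 5 higher, where 48.5% of all genes were lower, and the class median was -0.09.

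Cacnb2, a beta subunit, had the smallest p of all 127 genes. Its signals were 7.28, 7.22 and 7.39 in wild-type and 7.04, 6.98 and 7.02 in AP-2e null VNOs. The groups were tight and apart, with means of 7.30 ± 0.09 and 7.01 ± 0.03 (SD, n = 3 each). The difference was -0.28 with an interval of -0.44 to -0.13, or 1.22-fold lower (unadjusted p = 0.00470, adjusted p = 0.756 in limma). A second, dimmer probe set of Cacnb2 differed by -0.02 (unadjusted p = 0.945), and the mean of both gave -0.15 (unadjusted p = 0.289).

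Cacng5 had signals of 6.49, 6.26 and 6.88 against 6.02, 5.91 and 5.76. It was lower on every AP-2e null array, by 0.65 on average (SE 0.17), or 1.57-fold, the largest difference among the 9 genes (unadjusted p = 0.0106, adjusted p = 0.873 in limma). Without wild-type replicate 3 the difference was -0.48. Cacng2, known as stargazin, had the lowest difference of all channel genes, -0.97, but with an interval of -2.17 to 0.23. Its wild-type signals were 6.31, 6.56 and 7.94 and its AP-2e null signals 6.48, 5.58 and 5.84, so that a single wild-type array lay far above the rest and the groups overlapped. Without that array the difference was -0.47. A second, dimmer probe set of Cacng2 differed by -0.21 with no overlap, and the mean of both gave -0.59. Cacng7 shared that array, at 9.28 against 8.39 to 8.69 elsewhere, and its difference of -0.09 became 0.19 without it. Cacng6, a gamma subunit related to that of skeletal muscle, was dimmer and differed by -0.27 (interval -0.57 to 0.04), with AP-2e null replicate 3 among the wild-type arrays.

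**Figure D2:**
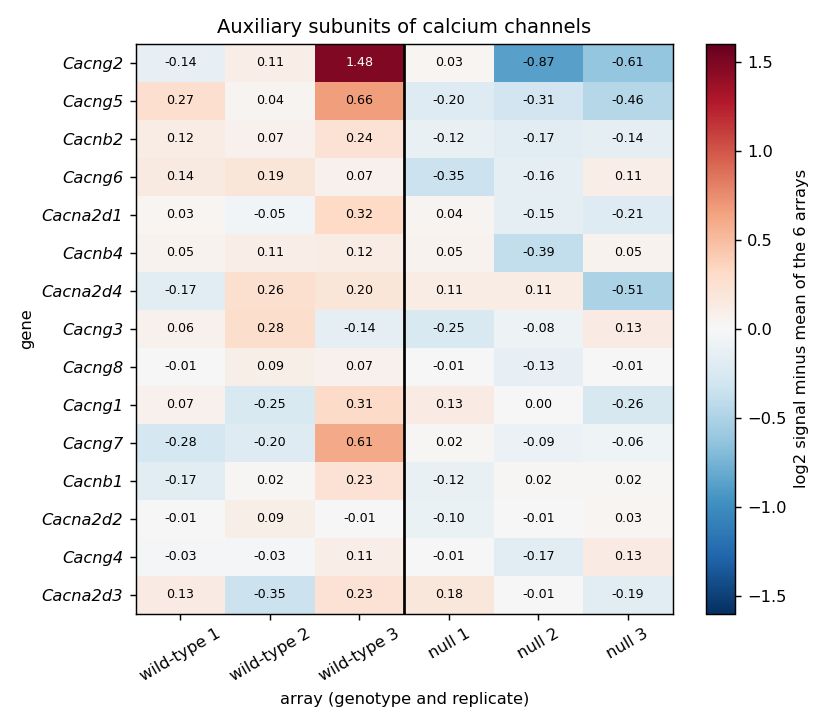
Log2 signal of the 15 auxiliary calcium channel subunits on each array, minus the gene's mean over the 6 arrays, with genes in rows by difference and wild-type arrays left of the line. Red is above and blue below the gene's mean; Cacng2 is 1.48 above its mean in wild-type replicate 3, while Cacnb2 is above its mean on every wild-type array and below it on every AP-2e null array.

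The pore-forming calcium channel subunits gave smaller values. Of 10 genes, 8 were lower (80%, against 50.6% of all genes) and 2 higher. Differences ran from -0.21 to 0.06 with a median of -0.07. An unadjusted p under 0.05 was found for none, against 4.4% of all genes. Cacna1c, the L-type channel of heart, vessels and neurons, differed by -0.18 (interval -0.51 to 0.16), and Cacna1h, a T-type channel that opens near rest, by -0.21 (interval -0.71 to 0.28). Both were highest in wild-type replicate 3, at 8.22 and 8.40, and without it the differences were -0.05 and -0.01. Cacna1e, an R-type channel gene, had the smallest p of this class (unadjusted p = 0.220) at -0.11. Cacna1g, a further T-type gene, was level between the genotypes at -0.003, with an interval of -0.24 to 0.23.

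Among the pacemaker channels, Hcn2 had signals of 7.29, 7.21 and 7.27 in wild-type and of 6.89, 6.80 and 7.06 in AP-2e null VNOs. The wild-type arrays lay close together and all above the AP-2e null arrays. Against a wild-type mean of 7.26 ± 0.04 the AP-2e null mean was 6.92 ± 0.13 (SD, n = 3 each), which is -0.34 with an interval of -0.54 to -0.14, or 1.26-fold lower (unadjusted p = 0.00631, adjusted p = 0.843 in limma). It stayed between -0.41 and -0.28 in every alternative setting, and wild-type replicate 3 was not its highest array. Hcn4 was only just free of overlap, with 7.36, 7.27 and 7.45 against 7.27, 7.15 and 7.11, and differed by -0.18 (unadjusted p = 0.0529). Hcn3 differed by 0.12, with overlapping groups.

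Because AP-2e is a DNA-binding protein of the AP-2 family, the promoters of these genes were searched for the family's motif GCCNNNGGC, which reads the same on both strands. Windows of 300 bases, from 250 before to 50 after the annotated start, came from RefSeq (GRCm38.p6) and were found for 98 of the 127 genes. Of these 98 genes, 27 (27.6%) had the motif in at least 1 window, against 22.3% of 16990 tested genes with a window; counted by window the shares were 20.3% and 20%. The windows of channel genes held 59.5% G and C, those of the tested genes 56.4%. Of the 6 genes that were lower at an unadjusted p under 0.05, 5 had a window, and the motif was found for Hcn2 alone; of the 3 higher genes 0 had it. The windows of Hcn2 (chr10:79716384-79716683, plus strand), of Cacnb2 (the first of its pair of windows, chr2:14604056-14604355, plus strand) and of Scn9a (chr2:66634913-66635212, minus strand) are shown since among the 6 lower genes these had the smallest spread within groups, with the motif in capitals where it occurs.
Hcn2: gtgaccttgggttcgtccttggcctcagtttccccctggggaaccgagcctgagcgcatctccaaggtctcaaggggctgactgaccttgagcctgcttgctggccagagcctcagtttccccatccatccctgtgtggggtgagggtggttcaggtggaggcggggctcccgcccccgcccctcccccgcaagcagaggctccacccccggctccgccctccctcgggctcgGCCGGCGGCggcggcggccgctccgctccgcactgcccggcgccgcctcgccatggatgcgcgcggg
Cacnb2: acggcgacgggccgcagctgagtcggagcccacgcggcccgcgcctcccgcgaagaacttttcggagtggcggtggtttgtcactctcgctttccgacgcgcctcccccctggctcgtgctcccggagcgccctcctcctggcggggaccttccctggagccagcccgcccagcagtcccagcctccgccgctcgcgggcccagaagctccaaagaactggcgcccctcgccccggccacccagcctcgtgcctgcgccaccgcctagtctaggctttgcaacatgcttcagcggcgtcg
Scn9a: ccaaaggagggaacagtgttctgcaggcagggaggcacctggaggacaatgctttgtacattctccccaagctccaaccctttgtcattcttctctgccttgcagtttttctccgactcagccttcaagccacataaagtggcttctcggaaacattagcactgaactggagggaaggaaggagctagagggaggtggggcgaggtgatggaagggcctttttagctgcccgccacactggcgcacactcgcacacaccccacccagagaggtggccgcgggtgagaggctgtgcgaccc
The motif of Hcn2 starts 17 bases before the annotated start. A match is a sequence description only, and the absence of these letters from a window says nothing about binding.

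Among potassium channels opened by calcium or sodium, 8 of 12 genes were lower (66.7%, against 50.6% of all genes) and 4 higher, with a median difference of -0.09. Kcnmb3, a beta subunit of the large-conductance BK channel, had signals of 6.95, 7.27 and 7.47 in wild-type and of 6.74, 6.71 and 6.77 in AP-2e null VNOs. The AP-2e null arrays were close together and all lower. The difference of -0.49 (SE 0.14) was 1.41-fold (unadjusted p = 0.0121, adjusted p = 0.873 in limma), and -0.37 without wild-type replicate 3. Kcnmb4, the neuronal BK beta subunit, differed by -0.32 (interval -0.67 to 0.04), with touching groups, by -0.18 without wild-type replicate 3, and its dimmer probe set by -0.30 (unadjusted p = 0.0322).

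Kcnma1, which codes for the BK pore itself, had a difference of the opposite sign to these beta subunits. Its signals were 9.15, 9.41 and 9.34 in wild-type and 9.44, 9.56 and 9.47 in AP-2e null VNOs, higher on every AP-2e null array by 0.19 on average (interval -0.02 to 0.40, unadjusted p = 0.0682 in limma). A second, dimmer probe set of Kcnma1 differed by 0.13 with overlapping groups (unadjusted p = 0.485 in limma). The mean of both gave 0.16 (unadjusted p = 0.133 in limma). Kcnn3, the SK3 channel, had 7.04, 7.24 and 7.53 against 7.02, 6.99 and 7.08, where only wild-type replicates 2 and 3 exceeded all AP-2e null arrays. Its difference was -0.24 (interval -0.56 to 0.08), and -0.11 without wild-type replicate 3. Its relative Kcnn2 differed by 0.12, and Kcnn4, the intermediate-conductance channel of blood cells and epithelia, by 0.22.

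Of the inward rectifiers 10 of 14 were higher and 4 lower, so that 28.6% were lower against 50.6% of all genes. The median was 0.08, and 1 gene (7.14%, against 4.4% of all genes) had an unadjusted p under 0.05 in limma. Subtracting each array's median moved the median of all genes to -0.04, with 62% of all genes then lower, and left 8 of the 14 higher. Without wild-type replicate 3, 10 of the 14 were still higher but the class median was 0.015, where 48.5% of all genes were lower. The class means were 5.67, 5.62 and 5.50 in wild-type and 5.65, 5.70 and 5.71 in AP-2e null VNOs, so that the groups overlapped. Kcnj8, the pore of the ATP-sensitive potassium channel of vascular smooth muscle and pericytes, had signals of 6.34, 6.66 and 6.58 in wild-type and of 7.10, 6.90 and 6.77 in AP-2e null VNOs. All AP-2e null arrays were higher, by 0.40 on average (SE 0.12) or 1.32-fold (unadjusted p = 0.0193, adjusted p = 0.873 in limma), and by 0.31 without AP-2e null replicate 1. Of 7 smooth muscle and pericyte markers 5 were higher as well, with list means from 9.37 to 9.69 in wild-type and from 9.55 to 9.70 in AP-2e null VNOs. Pdgfrb among them was higher on every AP-2e null array, by 0.26. Their part in the Kcnj8 value was not tested.

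The G protein-gated rectifiers that take part in the vomeronasal response overlapped between the genotypes on the probe sets with the highest mean. Kcnj3 had signals of 6.08, 6.07 and 5.32 in wild-type and of 6.09, 6.15 and 6.02 in AP-2e null VNOs, so that 5 arrays were nearly level and wild-type replicate 3 was low. The difference was 0.26 with an interval of -0.28 to 0.81, and 0.01 without that array. Its second, dimmer probe set did separate the genotypes, with 3.86 to 4.26 in wild-type and 4.42 to 4.89 in AP-2e null VNOs, and differed by 0.50 (unadjusted p = 0.0294). Kcnj6 was dim, from 3.33 to 3.71 over the 6 arrays, and Kcnj9, a partner subunit, differed by 0.13. Kcnj5, also G protein-gated, varied widely within groups, from 4.84 to 5.42 in wild-type and from 4.94 to 5.999 in AP-2e null VNOs.

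The 36 pore-forming subunits of voltage-gated potassium channels showed little. No gene had an unadjusted p under 0.05, against 4.4% of all genes. In this class 22 were lower (61.1%, against 50.6% of all genes) and 14 higher, and the median difference was -0.03. Kcnh2, the ERG channel studied in basal neurons, had signals of 6.74, 6.67 and 6.70 in wild-type and of 6.84, 6.60 and 6.64 in AP-2e null VNOs. The groups were interleaved and the difference was -0.009 with an interval of -0.21 to 0.19. Of 5 basal neuron markers on the same arrays 4 were lower, among them the G protein subunit Gnao1 by 0.68 (adjusted p = 0.331 in limma). The remaining marker, Gng8, was higher by 0.06 with overlapping groups. The part of basal neurons in the Kcnh2 value was not tested. Kcnh7, a related ERG gene, stood at 6.86 in wild-type replicate 3 against 5.52 to 6.07 elsewhere, with a difference of -0.48 (interval -1.27 to 0.31) that was -0.16 without that array. Kcnq3, a subunit of the M-current channels that restrain repeated firing, differed by -0.38 (interval -1.004 to 0.24), by -0.20 without wild-type replicate 3 and by -0.19 without AP-2e null replicate 3. Kcnq1, a channel of epithelia and heart, had the smallest p of the class (unadjusted p = 0.0764) at 0.18, and Kcnq1ot1, the non-coding RNA transcribed antisense within the Kcnq1 gene, was higher on every AP-2e null array, by 0.37 (interval -0.04 to 0.78), and by 0.19 without wild-type replicate 3. Kcna7, a Kv1 family gene, differed by 0.15 (interval -0.10 to 0.41).

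Auxiliary subunits of these channels were evenly split, with 6 of 13 lower (46.2%, against 50.6% of all genes), 7 higher and a median of 0.00. Kcnip4, a calcium-binding partner of Kv4 channels, was the single gene with an unadjusted p under 0.05 (7.69% of the class, against 4.4% of all genes). Its signals were 4.67, 4.45 and 4.14 in wild-type and 5.10, 4.84 and 4.72 in AP-2e null VNOs, all higher, with a difference of 0.47 (SE 0.17) or 1.38-fold (unadjusted p = 0.0335, adjusted p = 0.873 in limma). The highest AP-2e null array was again replicate 1, without which the difference was 0.36. Kcne3, a partner of Kcnq1 in epithelia, and Kcnrg, a regulator of potassium channel assembly, varied most within groups. Kcne3 ran from 7.99 in wild-type replicate 1 to 6.57 in wild-type replicate 3, and Kcnrg from 8.76 to 7.35 between the same arrays. The mean of 4 markers of multiciliated cells took the same order in wild-type VNOs (8.86, 8.75 and 8.16). In AP-2e null replicates 1, 2 and 3 that mean was 8.13, 8.30 and 8.38, where Kcne3 took another order (7.13, 7.25 and 6.78), as did Kcnrg (7.76, 7.98 and 7.94). Without wild-type replicate 1 the difference of Kcne3 was -0.05 and that of Kcnrg 0.01, and without wild-type replicate 3 they were -0.76 and -0.70. The part of multiciliated cells in these values was not tested.

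Of the 13 channels with 2 pore domains, which carry background potassium currents, 7 were lower and 6 higher, with a median of -0.03. That is 53.8% lower, against 50.6% of all genes. None had an unadjusted p under 0.05, against 4.4% of all genes. Kcnk12, a subunit of this group, came nearest with 6.38, 6.19 and 5.77 against 5.77, 5.63 and 5.82, a difference of -0.37 (unadjusted p = 0.0669) in which wild-type replicate 3 lay among the AP-2e null arrays. Kcnk6 did not overlap between the genotypes but differed by only -0.12.

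**Figure D3:**
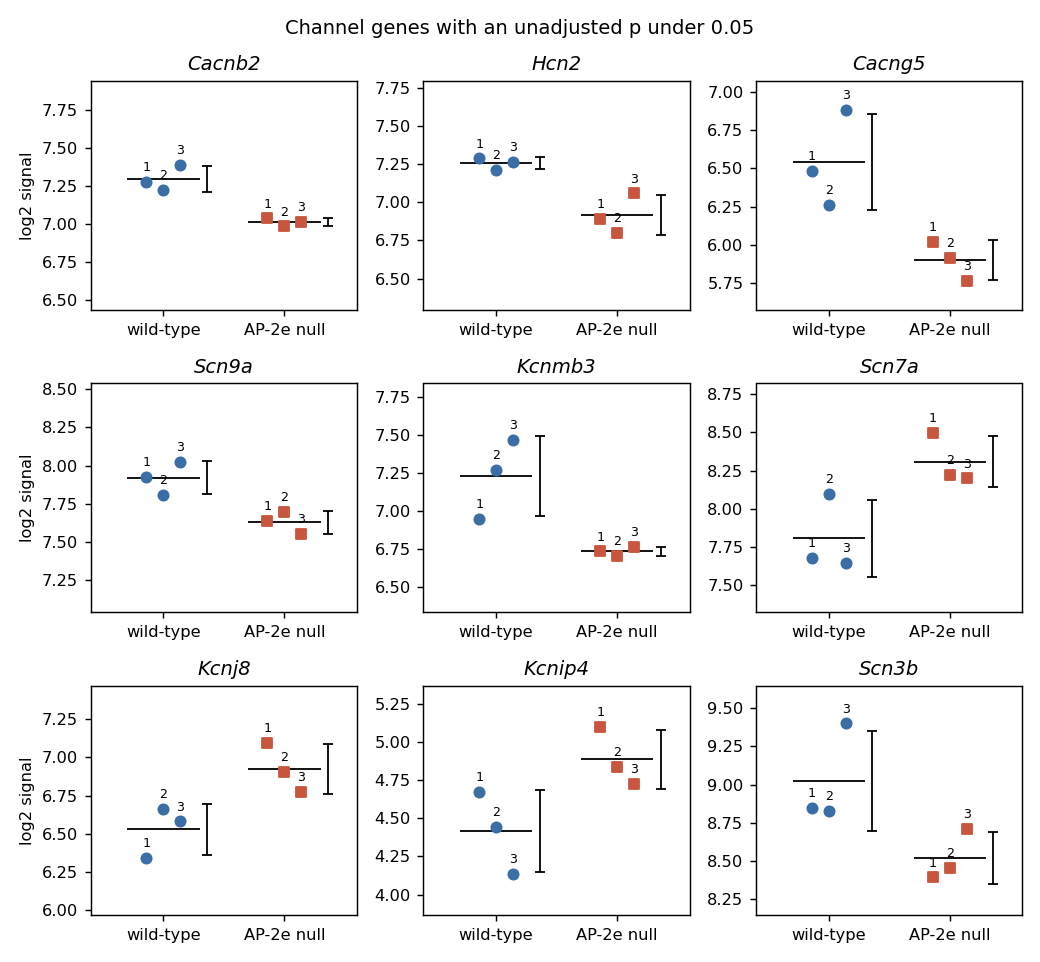
Log2 signal (y axis, 1.5 units in every panel) on each array for the 9 channel genes with an unadjusted p under 0.05 in limma; numbers are replicates, lines are means and bars are SD (n = 3 each). The groups do not overlap in any panel, Scn7a, Kcnj8 and Kcnip4 are higher and highest in AP-2e null replicate 1, and 0 of the 9 pass after adjustment over all genes.

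None of these 9 genes overlapped between the genotypes, so the highest array was a wild-type one for each lower gene and an AP-2e null one for each higher gene. Of the 6 lower genes, Cacnb2, Cacng5, Scn9a, Kcnmb3 and Scn3b were highest in wild-type replicate 3, and Hcn2 in wild-type replicate 1. The 3 higher genes, Scn7a, Kcnj8 and Kcnip4, were highest in AP-2e null replicate 1, the array with the high Xist signal. Without that array 0 channel genes were higher at an unadjusted p under 0.05 in limma. In either direction 6.3% of the channel genes then reached that level, against 4.37% of all genes. Over all 127 genes, AP-2e null replicate 1 was the highest array for 26 (20.5%, against 18.5% of all genes). Wild-type replicate 3 was the highest for 39 (30.7%, against 23% of all genes). On that array the mean of the 5 basal neuron markers was 9.70, against 9.51 and 9.47 in the other wild-type VNOs and 8.95 to 9.05 in AP-2e null VNOs. The mean of the 7 apical markers was 9.23 against 9.08 to 9.22 elsewhere. That of the 6 markers of both classes was 9.33 against 9.04 to 9.19, with Omp among them at 10.48 against 9.46 to 9.93. Wild-type replicate 3 was the highest array for 4 of the 5 basal, 3 of the 7 apical and 3 of these 6 markers. The basal marker Gng8 was lowest there, at 9.46 against 9.74 to 9.99. The part of neuron content in the channel values was not tested.

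Channels that have been studied in vomeronasal or olfactory sensory neurons were read as a list of 26, of which 21 were analysed here. Of these, 15 were lower and 6 higher, so that 71.4% were lower against 50.6% of all genes. Hcn2 and Scn9a had an unadjusted p under 0.05, 9.52% of the list against 4.4% of all genes, and the median difference was -0.05, against -0.0005 for all genes. The intervals of 20 of the 21 lay within 2-fold either way, and that of Kcnq3 reached it. Cacna1a, Kcnh1 and Cacna1d differed by less than the median channel gene, with Cacna1a at -0.01 (interval -0.23 to 0.21), Kcnh1 at -0.02 (-0.30 to 0.26) and Cacna1d at -0.05 (-0.43 to 0.32), while Cacna1b was at -0.13 (-0.61 to 0.35). Scn2b, a beta subunit, differed by 0.20 and Kcnk9, with identical values on 5 arrays, by -0.08.

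**Figure D4:**
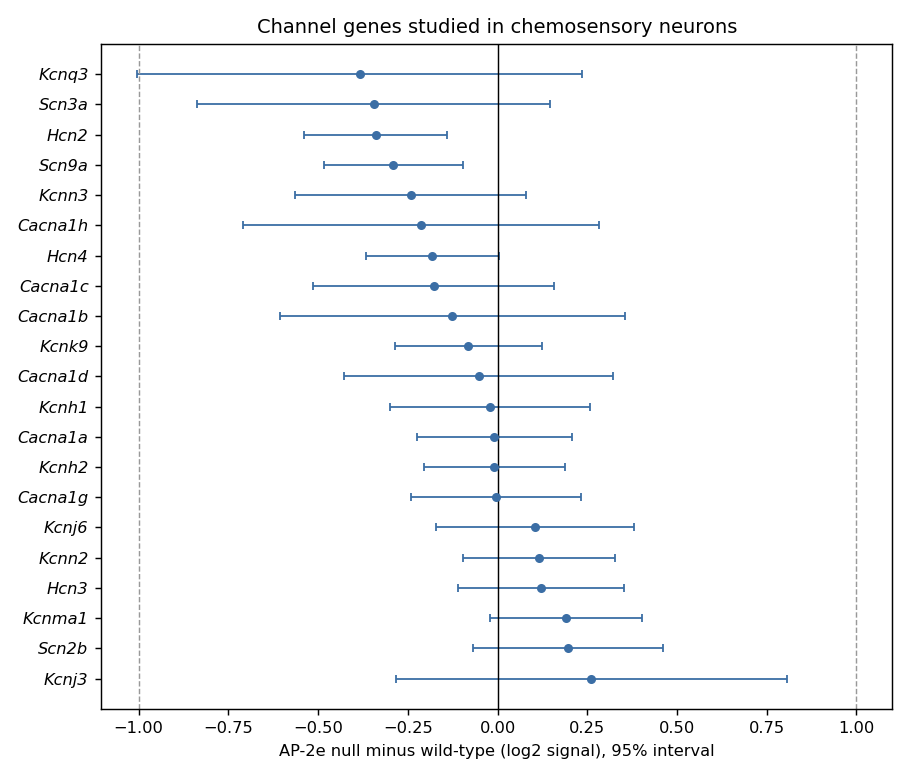
Difference between AP-2e null and wild-type means (x axis, log2 signal) with its 95% interval from limma for the 21 channel genes studied in chemosensory neurons; dashed lines mark 2-fold. The intervals of Hcn2 and Scn9a leave out 0, and Kcnh2 and Cacna1g sit at 0.

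Genes outside the channel families were read as a list of 32 measured genes. The list holds partners of these channels and also the sodium leak channel complex (Nalcn, Unc79, Unc80 and Fam155a), which is a channel of its own. None passed in limma. At an unadjusted p under 0.05, 3 were lower, 9.38% against 2.49% of all genes, and 0 were higher, against 1.9%, and the median difference was -0.01. These 3 were Cntnap2, Fam155a and Unc79, of which only Cntnap2 is a partner of the channel genes. The 9.38% is therefore not a share among partners of the channel genes. Cntnap2, which clusters Kv1 channels along axons, had signals of 8.23, 7.97 and 8.37 in wild-type and of 7.75, 7.82 and 7.62 in AP-2e null VNOs. It was lower on every AP-2e null array, by 0.46 on average (adjusted p = 0.873 in limma). Fam155a and Unc79, subunits of the sodium leak channel complex, were lower on every AP-2e null array by 0.60 and 0.16, while Unc80, a further subunit, was higher by 0.09 with overlapping groups. The pore of that complex, Nalcn, differed by 0.01 and had the same value, 4.73, on 5 of the 6 arrays. Pex5l, the auxiliary subunit of HCN channels, did not overlap between the genotypes either and differed by -0.14, and the sodium channel anchor Ank3 by -0.01.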

How the data were processed

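VNO RNA of 6 samples was measured on 6 arrays. The deposited table holds log2 signals, 1 per probe set and array, made by the authors with RMA and the Transcriptome Analysis Console, per the submitters' processing notes (versions and genome build: not given in the sources used here). RMA equalises array distributions and can compress small differences, and 60 of the 127 channel genes had a repeated value among their 6 arrays. Of 41345 probe sets, 23521 had 1 gene and were used; 10 channel genes had more than 1, of which the one with the highest mean was taken. All 22180 genes were fitted with limma 3.58.1 in R 4.3.3 (lmFit, eBayes, 2-sided, no covariate) with Benjamini-Hochberg adjustment over all genes at 0.05 and no filter on dim genes. Intervals are 95%, from limma's standard errors. Scripts were tested on simulated data. The channel genes, lists and rule were chosen with earlier results of these data known. Named were the 10 lower and 10 higher channel genes with the smallest p, the best of each class, the channels studied in sensory neurons, the 5 with the largest spread within groups, and a few more after their values were seen. Python 3.11.15 with matplotlib 3.10.9 made the plots.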

Additional observations from a re-analysis of the deposited data

How the results depend on the processing

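No channel gene passed over all genes in any setting tried: trend and robust moderation, probe sets averaged per gene, leaving out the dimmest 30% of genes, median centring, cyclic loess, array weights, the one-way test, the replicate block, Scn symbols with 2 digits (which add Scn10a at 0.14 and Scn11a at 0.12), and leaving out each array. With a single array left out, the channel genes lower at an unadjusted p under 0.05 numbered 5 to 11 and the higher ones 0 to 4 (11 lower and 1 higher without wild-type replicate 1, and 0 higher without AP-2e null replicate 1). In either direction these were 5.51% to 10.2% of the channel genes, against 3.52% to 6.61% of all genes. In every other setting the lower ones numbered 6 to 8 and the higher ones 2 or 3. Those were 6.3% to 9.8% of the channel genes tested in either direction, against 2.86% to 6.09% of all genes. Of 49 channel genes named in the text, 38 kept their direction in every setting, and Kcnk9 was at 0 without AP-2e null replicate 1. The other 10 changed sign, with differences when 1 array was left out of Kcnh2 from -0.0826 to 0.0378, Kcnh1 from -0.0848 to 0.0964, Cacna1a from -0.0833 to 0.069, Cacna1b from -0.289 to 0.0333, Cacna1d from -0.163 to 0.0673, Cacna1g from -0.0914 to 0.0786, Kcnrg from -0.699 to 0.00585, Cacng7 from -0.25 to 0.195, Scn1a from -0.182 to 0.216 and Scn4b from -0.0661 to 0.206; with array weights Cacna1d was at 0.0426, Cacna1g at 0.0146, Cacng7 at 0.0496 and Scn1a at -0.0502. Leaving out 1 array moved the difference of 38 of the 49 by over 1.5 times or across 0, most often wild-type replicate 3, which did so for 26. Deviations from the group means of same-numbered arrays correlated across genes with r = 0.04, 0.11 and 0.02. Between arrays with different numbers r ran from -0.19 to 0.12, a range that holds those values. With 3 arrays per genotype these correlations cannot decide whether same-numbered samples were paired. With the replicate block 22 genes in all passed, against 50 without it, with 0 channel genes either way. Both fits put 9 channel genes at an unadjusted p under 0.05. The block leaves fewer degrees of freedom for the spread, so the lower count of genes does not decide the pairing either. The number of arrays, 3 per genotype, limits the precision.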
